A study of Drosophila melanogaster with 3 samples.

Results

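Deep intronic peaks are places where a DNA-binding protein was recovered inside a gene, away from both its exons and any start site. In ChIP-seq (chromatin immunoprecipitation followed by sequencing) of the tagged zinc finger protein CG8319 from whole Drosophila melanogaster prepupae, 500 peaks of the authors' optimal list were of this kind. That list holds 3578 peaks on autosomes and 832 on the X chromosome, and the 500 are 11.3% of it. They were chosen by position alone. The peak lay on an autosome, its summit was more than 5000 bp from every annotated transcription start site, and the summit fell inside a gene but in no annotated exon. They made up 14.0% of the autosomal peaks. The study holds 1 group of 3 samples, numbered in the labels as biological replicates 1, 2 and 3. Each is a pool of male and female prepupae of unknown age from 1 transgenic line that stably expresses CG8319 with a GFP at its C terminus, immunoprecipitated with an antibody to GFP after sonication to 200 to 800 bp. All samples carry the tagged protein, and no untagged animals were analysed here. The signal of a peak is the authors' peak caller value, whose scale differs between lists, and read depth is unknown. Whole animals mix all tissues, so more cells bound and more binding per cell cannot be told apart.

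Introns are removed from the transcript, but their DNA can carry regulatory sequence. In flies, the long introns of developmental genes are known to hold enhancers, which act on start sites at a distance, and the first intron is often the longest. Zinc finger proteins commonly bind DNA through arrays of fingers that read short runs of bases. The prepupa is the stage after larval life at which pulses of the steroid hormone ecdysone drive the change to the adult body.

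The members' summits lay, in most cases, in short stretches rich in A and T, and 6 windows among those of the strongest members show what these look like. The windows of dnr1 and Psc, which rank in signal among these 6, lie on a chromosome arm whose sequence is not shown. The dnr1 summit had less A or T than its flanks (52.5% against 59.9%). Each window shown reaches 50 bp to either side of the summit and is read 5′ to 3′ on the + strand of the RefSeq sequence in dm6 coordinates. Capitals mark bases in a match, on either strand, to any of 10 6-base words. The words were picked on the peaks of the X chromosome, which hold no member, as those with the largest gain of summit windows over flanking windows. They overlap one another. Over all 500 member windows, TTAAAA was in 32.6%, AAATAT was in 28.6%, ATTTTA was in 30.6%, TAAATA was in 27.8% and ATTTAA was in 34.0%. ATTAAA was in 30.2%, ATATTA was in 22.4%, AATAAT was in 24.2%, AATATT was in 16.6% and TAAAAA was in 29.6%. The hosts are the uncharacterised genes CG32486 and CG42238, the nuclear receptor gene Eip75B, the nucleosome remodeller gene Mi-2, the histone methyltransferase gene gpp and the ubiquitin ligase adaptor gene rdx.
CG32486 (chr3L:3060765-3060865): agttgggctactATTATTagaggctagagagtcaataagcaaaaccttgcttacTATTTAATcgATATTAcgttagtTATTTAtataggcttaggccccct
Eip75B (chr3L:18011853-18011953): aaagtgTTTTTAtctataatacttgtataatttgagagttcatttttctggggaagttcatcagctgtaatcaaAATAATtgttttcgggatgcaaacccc
Mi-2 (chr3L:19903235-19903335): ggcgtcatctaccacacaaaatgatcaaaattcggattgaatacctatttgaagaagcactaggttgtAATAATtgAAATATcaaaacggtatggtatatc
CG42238 (chr2L:21009465-21009565): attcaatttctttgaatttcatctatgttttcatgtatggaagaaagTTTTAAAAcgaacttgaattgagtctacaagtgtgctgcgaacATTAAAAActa
gpp (chr3R:6424062-6424162): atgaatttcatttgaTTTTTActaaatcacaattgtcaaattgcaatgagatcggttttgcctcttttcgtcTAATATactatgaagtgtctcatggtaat
rdx (chr3R:14012681-14012781): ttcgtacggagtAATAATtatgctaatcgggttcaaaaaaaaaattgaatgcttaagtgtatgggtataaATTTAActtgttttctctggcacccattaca
Each of these 6 windows holds at least 2 matches, and the CG32486 window holds 6. A match to a word describes the letters and is not evidence of a binding site.

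Across the 500 members, A or T made up 68.1% of the bases in the summit windows and 53.7% in equally wide windows 300 bp before and after them. The summit window was the richer one in 450 members. In the profile around the summit, A or T reached 69.5% at the centre and was 52.7% at 260 bp before it and 53.1% at 260 bp after it. Across 220078 windows tiling all autosomal intron more than 5000 bp from a start site, the sequence in which a member could fall, the content was 59.7%. The members' summits thus stood above the level of that sequence and their flanks below it.

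**Figure D1:**
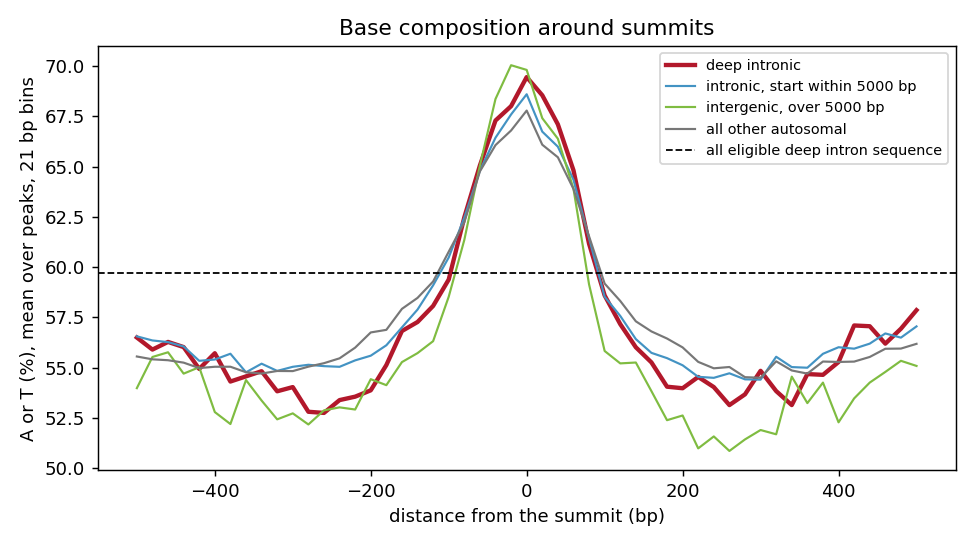
Mean A or T content (%) in 21 bp bins against distance from the summit (bp) for the 500 deep intronic peaks and the 3 comparison classes. The deep intronic line peaks at 69.5% and drops below the dashed line of 59.7%, the mean of all eligible deep intron sequence, on both sides.

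The rise was measured again at the replicates' own summits, those of the strongest replicate peak overlapping each member. These lay within 50 bp of the member's summit in 370 of 498, 414 of 499 and 413 of 500 members in replicates 1, 2 and 3. The rise was 13.6, 14.4 and 14.0 percentage points in replicates 1, 2 and 3, a mean of 14.0 ± 0.394 (SD, n = 3). Autosomal intronic peaks within 5000 bp of a start site rose by 11.8 ± 0.549 points, autosomal intergenic peaks over 5000 bp from one by 15.4 ± 0.694 and all other autosomal peaks by 11.4 ± 0.564. The members exceeded the near intronic peaks by 2.19 ± 0.305 points and all other autosomal peaks by 2.58 ± 0.273, higher in 3 of 3 replicates each time. They fell short of the intergenic peaks by 1.40 points (difference -1.40 ± 0.302), in 3 of 3 replicates. The exact two-sided sign-flip permutation test gave an adjusted p of 0.25 for each of the 3 differences, and 0.25 is the smallest p that 3 replicates allow.

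The words chosen on the X chromosome were also common at the members' summits. At least 1 of the 10 was present in 429 of 500 member windows (85.8%), in 46.8% of the 1000 flanking windows and in 62.4% of the eligible windows. At the replicates' own summits the share was 83.9%, 85.8% and 85.2%, against 45.1%, 47.4% and 46.8% in the flanks of replicates 1, 2 and 3. TTAAAA was in 8.9% of the members' flanks and 18.3% of eligible windows. Its share at the summits exceeded that in the flanks by 23.01 ± 0.747 points over the replicates (SD, n = 3). Matches were centred on the summit, with 59 in the 20 bp after it and 6 in the 20 bp that begin 300 bp before it. ATTTAA was the word with the largest gain within the members, in 34.0% of summits and 9.8% of flanks. Near intronic peaks held it in 28.0% of summits and 10.9% of flanks, intergenic peaks in 31.25% and 8.26%, and all other autosomal peaks in 28.6% and 11.55%. The words were not particular to the members. At least 1 was in 86.2% of intergenic, 79.8% of near intronic and 80.1% of all other autosomal summits. TTAAAA was in 33.0%, 34.0% and 33.6% of these summits, against 32.6% of the members'. These shares move with the A or T content given above, and the part of base composition in them was not tested.

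The consensus letters of known factors gave smaller differences, searched on both strands in the same windows. The homeodomain core TAATTA was in 10.4% of member summits, 5.1% of flanks and 7.24% of eligible windows. Its gain over the flanks was 7.63, 6.21 and 3.40 points in replicates 1, 2 and 3. AGGTCA, a site that many nuclear receptors bind, was in 18 summits (3.60%), 1.80% of flanks and 2.66% of eligible windows, a gain of 1.503 ± 0.362 points over the replicates (SD, n = 3). CTTTGA, read by the Wnt pathway factor TCF, was in 8.20% of summits, 4.90% of flanks and 6.67% of eligible windows. Matches to TAATTA can overlap those of the A and T words.

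Several other motifs were less frequent at the summits than beside them. The E-box letters CANNTG were in 31.2% of member summits, 44.2% of flanks and 38.2% of eligible windows, and the difference from the flanks was -10.8 ± 1.93 points over the replicates. GCCAT, the core read by the Polycomb group factor Pho, was in 12.8% of summits, 20.9% of flanks and 19.7% of eligible windows. GAGAG, read by GAGA factor, was in 55 of 500 summits, 14.5% of flanks and 11.5% of eligible windows. Lower shares at summits were not particular to the members. CANNTG was in 35.1% of near intronic summits and 43.5% of their flanks, and in 29.5% and 42.9% for intergenic peaks. For GCCAT these shares were 11.1% and 18.1%, and 12.9% and 20.5%. All 3 motifs hold G and C letters, and the part of base composition in these shares was not tested. The GATA factor letters GATAAG were in 2.80% of member summits and 3.50% of their flanks, against 6.33% of near intronic summits and 4.19% of theirs. The E-box CACGTG was in 0 of 500 member summits, which allows a share of up to 0.6%, and in 1.09% of eligible windows. Also in 0 of 500 were TATCGATA, the DRE letters, found in 0.212% of eligible windows, and the Grainyhead letters ACCGGTT, found in 0.341%. No match says only that these letters are not in the window.

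The strongest members lay in genes of several kinds. By the optimal list, 4 of the 500 ranked among the 100 peaks of highest signal and 24 among the 500 highest. The member of highest signal lay in the first intron of CG32486 (FBgn0266918, 3L, 3060628 to 3060986), 5736 bp from the closest start site, that of CG16753. It had a signal of 1176 in the optimal list and of 240, 574 and 362 in replicates 1, 2 and 3. That placed it above 99.4%, 99.6% and 99.7% of optimal peaks in those replicates.

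Replicate 2 had the highest listed value at each of the 23 members named here for their strength or weakness, and its scale runs higher throughout. The median listed signal over the members was 33.1, 62.7 and 37.1 in replicates 1, 2 and 3. Ranks within a replicate are therefore the comparable quantity. The 20 strongest members found among the top peaks of all 3 replicates had no rank below the 79.5 percentile of optimal peaks in any replicate. Of the 20, 15 lay in a first intron, read against 55.0% of all members. The nearest start site belonged to the named host in 14 of the 20, read against 55.6% of all members. Neither difference was tested.

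Genes for chromatin proteins were hosts of several of the 20. They were grouped here after their values were seen, and only Psc and trx are in a gene list described further on. The share of such genes among all eligible genes was not taken. The peak in Mi-2, the ATPase of the NuRD remodelling complex, also lay inside the elongation factor gene Su(Tpl) (3L, 19903141 to 19903428) and had a signal of 636, with 155, 290 and 183 in replicates 1, 2 and 3. The peak in simj, which encodes another NuRD subunit, had 441 (3L, 10682814 to 10683223), with 83.3, 220 and 132. Psc, a Polycomb group gene, held one with 596 in a later intron (2R, 12975438 to 12975724), with 123, 297 and 172 in the replicates. These 3 ranked above 89% of optimal peaks in every replicate. In gpp, the gene for the H3K79 methyltransferase, the peak had 590 (3R, 6423965 to 6424248) and 133, 313 and 135 in the replicates. In trx, a trithorax group histone methyltransferase gene, it had 391 (3R, 14277935 to 14278210) and 113, 192 and 93.3, in an exon-free stretch of 1550 bp. The corepressor gene sbb held one with 428 (2R, 18338368 to 18338626) and 102, 202 and 120 in the replicates. tara, a gene of the trithorax group, held one with 484 (3R, 16236779 to 16237111) and 107, 230 and 147.

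Hormone response and signalling genes followed. The second strongest host outside 2R was Eip75B, an early gene of the ecdysone response, with a signal of 699 in the first intron of a transcript (3L, 18011743 to 18012054), 12082 bp from the gene's nearest start site. The replicates gave 151, 331 and 206, each above 98% of optimal peaks. E23, an ecdysone-induced ABC transporter gene, held a peak of 412 (2L, 3348167 to 3348428), with 108, 197 and 113 in replicates 1, 2 and 3. Both genes are members of the ecdysone list described further on. In dpp, which encodes a BMP ligand, the peak had 449 (2L, 2433504 to 2433769), with 139, 208 and 108. In shn, a zinc finger gene of the Dpp pathway, it had 432 (2R, 11188633 to 11188901), with 111, 214 and 111. In rdx, whose product marks the Hedgehog pathway factor Ci for degradation, it had 484 (3R, 14012594 to 14012843), with 105, 239 and 138. All 3 lay in introns of genes for signalling between cells.

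The remaining strong hosts were dnr1, a ubiquitin ligase gene that restrains caspase and immune signalling (2R, 22569792 to 22570176, signal 747), the scaffold gene gukh (441), the cadherin gene Cad86C (380), Swip-1, a gene for an actin-binding EF-hand protein (368), CG42238 (609), sba (416) and CG46385 (375). The dnr1 and Swip-1 summits were the 2 of the 20 with less A or T than their flanks. The Swip-1 window had 49.5% against 66.8%. At the other end, the weakest members had signals just above the threshold of the optimal list. They lay in aop, an ETS repressor gene (87.4), rols, a myoblast fusion gene (87.5), and cv-c, a RhoGAP gene (87.5). The aop peak had 13.2, 45.3 and 24.7 in replicates 1, 2 and 3 and was a top peak of 1 replicate.

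Members were weaker than peaks near start sites. Their median signal was 127, with a range of 87.4 to 1176, against 152 in near intronic peaks, 124 in distal intergenic peaks and 148 in all other autosomal peaks. When all optimal peaks were ranked within each replicate, the median member stood at percentile 41.2, 39.3 and 40.98 in replicates 1, 2 and 3. Near intronic peaks stood at 53.4, 52.8 and 51.8, so the replicate medians did not overlap, though the signals of the peaks themselves did. The difference was -12.2 ± 1.34 points from near intronic peaks and -11.5 ± 0.112 from all other autosomal peaks, lower in 3 of 3 replicates. From intergenic peaks it was 1.11 ± 1.55, smaller than its spread, though members were higher in 3 of 3 replicates. The exact two-sided sign-flip permutation test gave an adjusted p of 0.25 each time, the smallest possible. Among the optimal peaks with signal above the list's median, the differences were smaller, at -5.83 ± 1.02 from near intronic peaks and -5.61 ± 1.56 from all other autosomal peaks. The difference from intergenic peaks changed sign to -5.52 when members had to lie over 10000 bp from a start site, and to -2.47 among the peaks above the median.

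A smaller share of members than of near intronic peaks was found again in every replicate. For this, each replicate list was limited to its peaks of highest signal, as many as the optimal list holds. The optimal list and its signal come from these same replicates. The shares therefore partly restate signal rank and are not independent recovery. In all 3 top lists were 291 of the 500 members (58.2%), read against 66.1% of all optimal peaks. In exactly 2 were 142, in 1 were 65 and in none were 2. By replicate the share was 75.6%, 85.8% and 83.0% in replicates 1, 2 and 3, a mean of 81.5% ± 5.27 (SD, n = 3). Near intronic peaks had 86.6% ± 2.68, intergenic peaks 81.5% ± 8.05 and all other autosomal peaks 85.6% ± 2.96. The difference was -5.13 ± 2.71 points from near intronic peaks (adjusted p = 0.375, exact sign-flip permutation test, two-sided), -0.0810 ± 5.41 from intergenic peaks (adjusted p = 1, same exact test) and -4.13 ± 2.50 from other autosomal peaks (adjusted p = 0.375, same exact test). Members were lower than near intronic peaks in 3 of 3 replicates. With a stricter limit on the replicate lists, which kept only the stronger peaks of each top list, the differences were -13.98 ± 0.882 from near intronic peaks and -12.98 ± 0.604 from other autosomal peaks, over 1.5 times those above. Among the optimal peaks with signal above the list's median, the differences were 0.290 ± 0.467 and 0.308 ± 0.619, opposite in sign and smaller than their spread. Without replicate 1 the difference from other autosomal peaks was -2.69. That from intergenic peaks took its sign from replicate 3, and was 3.02 without it.

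The share found again depended on signal, so it was also taken in 4 bins of the optimal list, of equal size and ordered by signal. In the bin of highest signal, 78 of 78 members were in all 3 top lists, against 99.2% of near intronic peaks and 98.8% of all other autosomal peaks. In the next bin it was 95.8% of 119 members, against 93.8% and 94.3%. In the third it was 56.7% of 141 members, against 61.8% and 56.9%, and in the weakest 11.7% of 162 members, against 16.3% and 15.4%. Members thus stood below near intronic peaks in both weaker bins and above them in both stronger ones, where nearly all peaks of every class were found again. These differences within bins were not tested. Regardless of rank, 498 of 500 members overlapped a listed region in every replicate. Each replicate list holds 30000 regions and the optimal list was derived from these lists, so such overlap was largely set in advance. Their summits shifted by a median of 23, 12 and 22 bp in replicates 1, 2 and 3, the same as in other autosomal peaks.

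**Figure D2:**
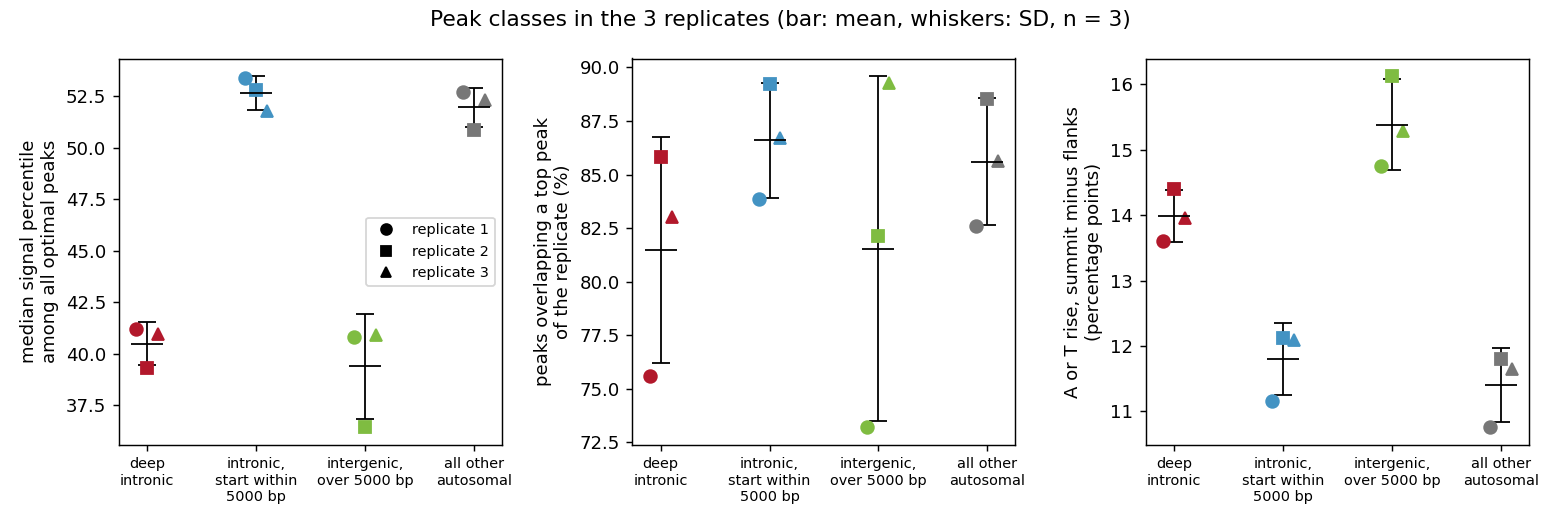
Values per replicate for the deep intronic peaks and 3 comparison classes. The panels give the median signal percentile among all optimal peaks, the share overlapping a top peak of the replicate (%) and the A or T rise from flanks to summit (percentage points), with bars at the mean and whiskers of 1 SD (n = 3). Deep intronic percentiles lie between 39.3 and 41.2, below the 51.8 to 53.4 of near intronic peaks, while the shares of the classes overlap.

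Deep intronic peaks made up a larger share of the last ranks of each list than of the first ranks. In the pooled list, which holds peaks together with background, they were 12.5% of the autosomal peaks at ranks 1 to 3000, 17.0% at 3001 to 6000 and 19.4% at 27001 to 30000. Each replicate list had 11.7% to 12.3% in its first 3000 peaks and 18.2% to 22.9% in its last. By length, deep intron was 4.14 Mb of the 23513712 bp of 2L and 4.88 Mb of the 25286936 bp of 2R. On 3L it was 5.39 Mb of 28110227 bp, and on 3R 8.25 Mb of 32079331 bp. Whether the larger share at the last ranks is that of background placed by sequence length alone was not tested. Within the members, signal had little relation to distance from the start site (Spearman's rho -0.0522 over 500 peaks) or to A or T content (0.181). Replicate percentiles of the same members had a rho of 0.629 (replicates 1 and 2), 0.617 (1 and 3) and 0.690 (2 and 3). These values run across peaks of the same 3 samples and are descriptions only.

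Deep introns held fewer peaks per length than introns near start sites and more than distal intergenic sequence. The 500 members fell in 22.9 Mb of eligible sequence, or 21.8 per Mb, against 57.2 per Mb in introns within 5000 bp of a start site and 13.0 in distal intergenic sequence. The replicates' own top lists gave 19.6, 21.2 and 21.6 per Mb in deep introns, 58.6, 56.9 and 57.4 in near introns, and 10.7, 12.1 and 13.3 in distal intergenic sequence. The replicate densities of the 3 kinds of sequence did not overlap. By arm, 3R held 165 members, 3L 128, 2L 117 and 2R 90, which is 20.003 per Mb on 3R, 23.7 on 3L, 28.3 on 2L and 18.4 on 2R. Distal intergenic sequence held 17.5 per Mb on 3R, 13.3 on 3L, 17.0 on 2L and 6.55 on 2R. The gap was thus narrow on 3R. Chromosome 4 held 0 in 0.259 Mb, which allows up to 11.6 per Mb.

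Beyond the 5000 bp limit, density changed little with distance up to 15000 bp. It was 31.1 members per Mb from 5000 to 7500 bp, 29.0 from there to 10000 bp, 30.1 to 15000 bp and 24.0 to 20000 bp. Over 20000 bp from a start site it was 5.89 per Mb, with 43 members in 7.29 Mb. Those 43 had a median signal of 151, and 32 of them were in all 3 top lists. Annotated transposable elements covered 8.61% of eligible sequence in the nearest bin and 10.9% in the farthest, and 3 of the 500 members lay in one. A few genes without a member hold much eligible sequence, with 1905 kb in Myo81F, 690 kb in Pzl and 417 kb in lovit. The part of repeats and of such genes in the lower density was not tested, so it cannot be read as a fall with distance alone. The median member was 9650 bp from its nearest start site, and the farthest 51796 bp. Just inside the limit were members in the nuclear receptor gene Eip78C (5007 bp), the cell cycle factor gene E2f1 (5047 bp) and the Wnt receptor gene dnt (5053 bp), with signals of 114.5, 225 and 220. Just outside were intronic peaks in Pdk and shep (4999 bp each) and cv-c (4998 bp), with 132, 133 and 242.

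**Figure D3:**
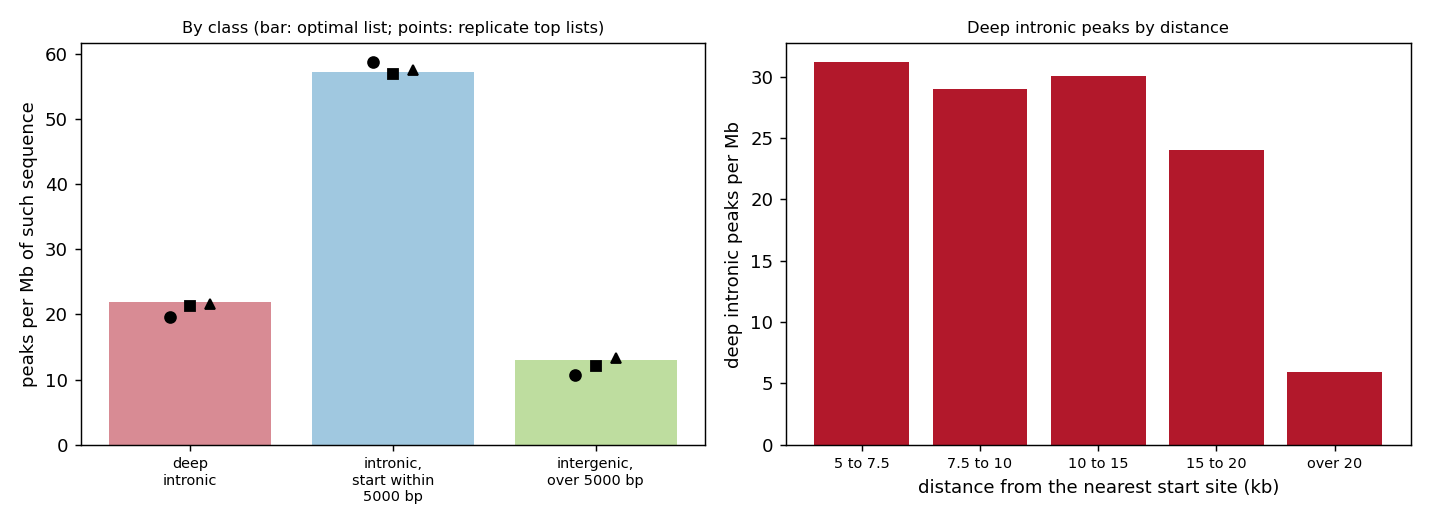
Peaks per Mb of sequence of each kind in the optimal list (bars) and in the top lists of replicates 1, 2 and 3 (circle, square, triangle), and deep intronic peaks per Mb by distance from the nearest start site (kb). Deep introns hold 21.8 per Mb, and the density is between 24.0 and 31.1 up to 20 kb and 5.89 beyond.

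First introns held most of the members. The summit fell in the first intron of some transcript in 275 members (55.0%), while 29.8% of eligible sequence is first intron. That is 40.3 members per Mb of first intron and 14.0 per Mb of later introns. The share in the replicates' own deep intronic top peaks was 56.9%, 54.5% and 57.5%, a mean of 56.3% ± 1.57 (SD, n = 3). Within 20000 bp of a start site, a limit set after seeing the data, 255 of 457 members (55.8%) lay in first introns, against 37.3% of the sequence. First intron members had a median signal of 135 and later intron members of 122. In all 3 top lists were 64.7% of the first intron members and 50.2% of the later ones.

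The rule that chose the members, by distance from start sites and outside exons, itself favours long introns. The lengths given here therefore describe the members only. They were not taken over the eligible sequence, so whether members lay farther from exons than that sequence was not tested. The median exon-free stretch around a member was 17196 bp, and the median distance to the nearest exon 4946 bp, with 5 members within 200 bp of one. The nearest start site belonged to the host gene in 278 members (55.6%) and to another gene in the others. The next optimal summit was a median of 3763 bp away, and within 5000 bp in 298 members. In 15 neighbouring pairs the peaks overlap, and such pairs can share a replicate peak and are not independent.

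The 500 members lay in 250 protein-coding genes, and 6 members lay in no protein-coding gene. These 250 are 17.7% of the 1416 protein-coding genes with eligible sequence. Of the 250, 133 held 1 member, 51 held 2, 31 held 3 and 35 held 4 or more. The 35 held 179 members. A member in all 3 top lists was present in 179 of the 250 genes. Hosts had a median of 18.8 kb of eligible sequence and the other eligible genes 4.29 kb.

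The corepressor gene sbb, also called brakeless, held the most members, with 10 in 1 exon-free stretch. They spanned 15578 bp, had signals of 88.6 to 428 and were in all 3 top lists in 8 cases. Both pairs of neighbours in sbb that lie about 200 bp apart share their replicate peaks. Fas3, a cell adhesion gene, held 8 over 46974 bp with signals of 97.3 to 196. Snoo, whose product is related to the Ski family of TGF-beta corepressors, held 8 over 67277 bp with signals of 87.6 to 327. Tet, a gene for an enzyme that oxidises methylated bases, held 8 over 62968 bp with signals of 88.5 to 263. The 8 in rdx lay within 18486 bp, and 6 of them were in all 3 top lists, against 4 in Fas3, 3 in Snoo and 3 in Tet. The ratio of strongest to weakest member thus differed between these genes, and so did the number found again.

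**Figure D4:**
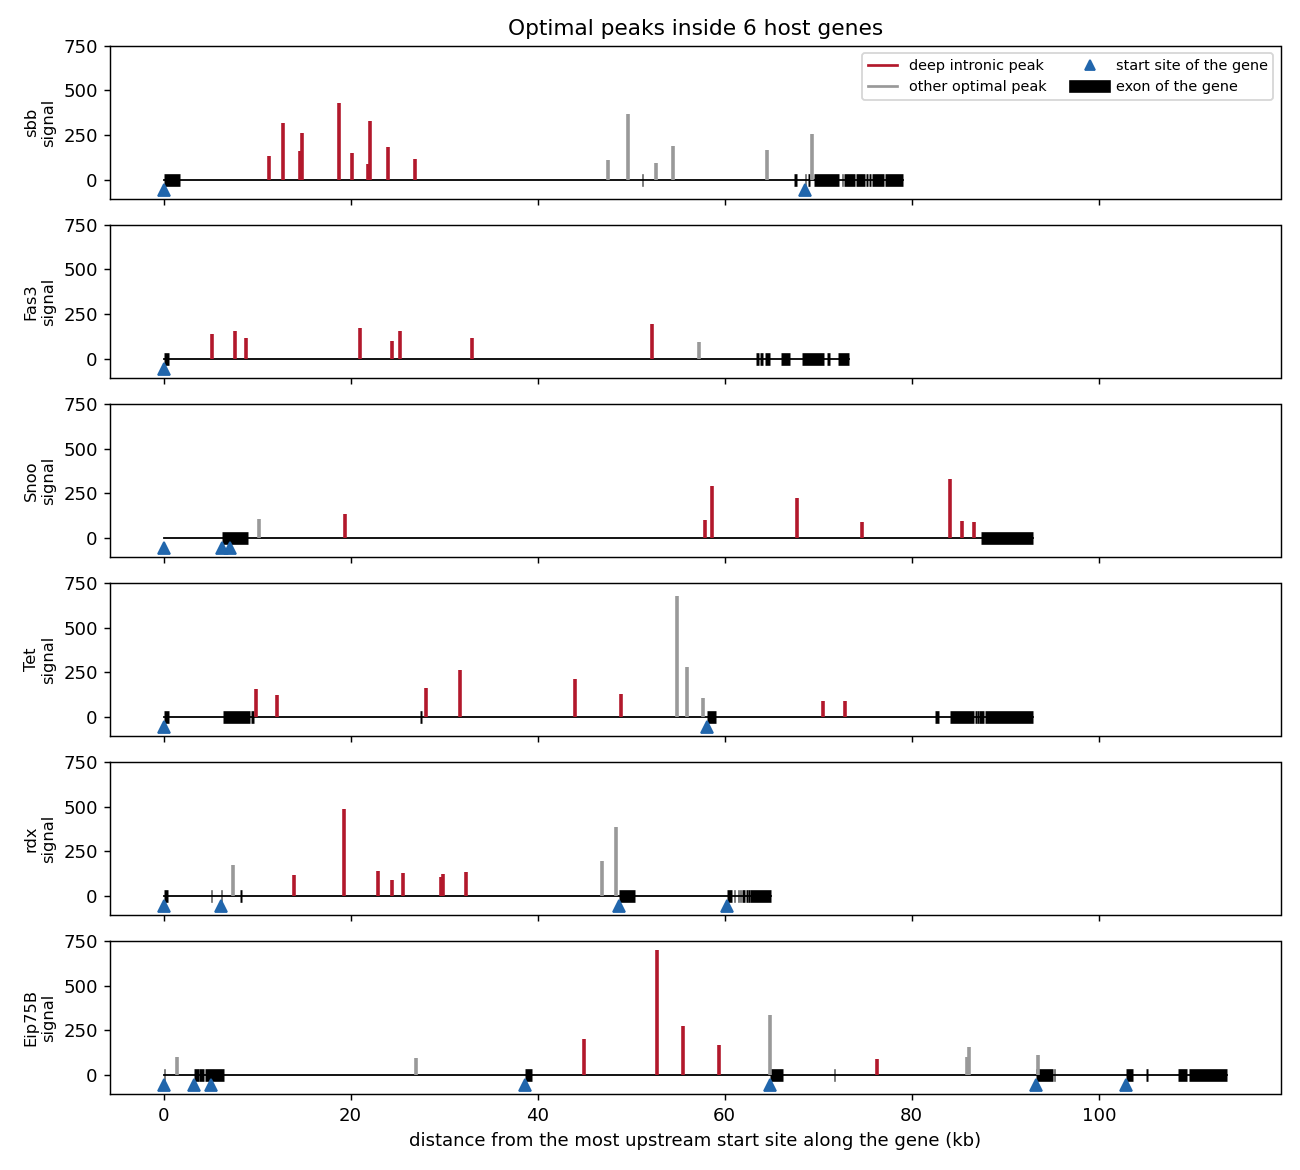
Signal of optimal peaks (vertical lines) along 6 host genes against distance from the most upstream start site (kb), for the 5 genes with 8 or more deep intronic peaks and Eip75B with 5. Deep intronic peaks are red and other optimal peaks grey, with triangles at the gene's own start sites and thick bars at its exons. The 10 of sbb and the 8 of rdx each sit in 1 exon-free stretch.

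Other genes held 4 to 7 members. The Wnt and planar polarity receptor gene fz held 7 and fz2, another Wnt receptor gene, held 5. The gene heca held 7, with a median signal of 203. The homeodomain gene hth held 6 over 106374 bp, 1 of them in all 3 top lists, while tara held 6 over 21691 bp with 5 in all 3. SKIP held 6, and the overlapping genes Glut4EF and CG46467 shared the same 6. Genes with 5 were Eip75B, the corepressor gene Gug, the transcription factor genes jing and luna, the GATA cofactor gene ush, and mtgo. The 5 of Gug lay within 5600 bp. The 16 genes with 4 were CG33158, CG42238, CG6040, CG6678, CG8312, E23, Eip74EF, Fur1, Ptp61F, S, cv-c, ed, lilli, osp, plum and simj.

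The share of genes that held a member differed between 7 lists of genes, each read against the 17.7% of all eligible genes. Among 14 eligible genes of the ecdysone response, 9 held a member (64.3%), with 22 members or 70.6 per Mb of their eligible sequence, against 22.0 per Mb over all eligible protein-coding genes. In the replicates' own top lists 9, 8 and 8 of the 14 held a deep intronic peak, 59.5% ± 4.12, against 17.1% ± 0.854 of all eligible genes (SD, n = 3 each). Besides Eip75B and E23 the strongest were in tai, a coactivator of the ecdysone receptor, with 292 (2L, 9224488 to 9224686), and Eip74EF, an ETS factor gene, with 228 (3L, 17611244 to 17611653). In replicates 1, 2 and 3 the tai peak had 62.8, 157 and 73.7, and the Eip74EF peak 32.9, 103.7 and 93.7. The receptor gene EcR held 1 with 103, found in 2 top lists. The other hosts were Hr3, Eip93F, Eip78C and ftz-f1, and the longest without a member was chinmo, with 27.5 kb. Promoter peaks at several of these genes were already known from these data when the list was chosen, so it is not independent evidence.

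Signalling genes came next. Of 42 eligible genes for receptors, ligands and kinases, 18 held a member (42.9%), with 44 members or 59.7 per Mb, and the replicates gave 43.7% ± 1.37 (SD, n = 3). The gene rdx, described above with signalling genes, is not in this list. Within the list, the strongest after dpp and shn lay in arr, a Wnt co-receptor gene, with 333 (2R, 13466992 to 13467200) and 62.4, 176 and 86.4 in replicates 1, 2 and 3. Dad, an inhibitor of Dpp signalling, held one with 305 (3R, 17065041 to 17065242) and 87.1, 123 and 93.9. Hosts of other pathways were the insulin receptor gene InR, the Notch ligand gene Ser, the EGF ligand gene vn and the Hippo pathway genes ft, ds and kibra. The phosphatase genes Lar and Ptp99A held none in 97.0 and 75.5 kb.

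Of 75 eligible genes for transcription factors and chromatin cofactors, 23 held a member (30.7%), with 50 members or 39.4 per Mb, and the replicates gave 29.3% ± 2.67 (SD, n = 3). Some hosts described above as chromatin or corepressor genes, among them Mi-2, gpp, tara, simj and sbb, are not in this list and not in its count. Within the list, the strongest after Psc and trx lay in the Hox gene Antp, with 282 (3R, 6914444 to 6914628), and in the forkhead gene jumu, with 253 (3R, 10357026 to 10357242). The Antp peak had 66.1, 136 and 71.2 in replicates 1, 2 and 3, and the jumu peak 43.2, 114 and 93.8. The Hox gene Ubx held none in 54.4 kb. RNA-binding protein genes were hosts in 6 of 23 cases (26.1%) but held 8.69 members per Mb, with replicates at 27.5% ± 2.51. Their strongest were in the translational repressor genes pum, with 216, and brat, with 190, followed by msi with 136 and cpo with 114.7. bru3 held none in 214.5 kb.

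Cytoskeleton and muscle genes were hosts in 8 of 39 cases (20.5%), near the 17.7% of all eligible genes, and the replicates gave 17.9% ± 2.56. Their strongest members were in spir, an actin nucleator gene, with 202, Zasp52, a Z-disc gene, with 171, kst, a spectrin gene, with 155, and cv-c with 111. Adhesion, matrix and axon guidance genes were hosts in 13 of 70 cases (18.6%), also near all eligible genes, with 14.1 members per Mb and replicates at 18.1% ± 1.65. After Cad86C their strongest were in kuz, a metalloprotease gene, with 321, Sdc, the syndecan gene, with 213, and Fas3 with 196. CadN held none in 93.2 kb.

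Ion channel and synapse genes held the fewest. Of 34 eligible genes, 1 held a member (2.94%), or 1.79 per Mb of their 0.560 Mb, and the replicates gave 1, 1 and 2 genes, 3.92% ± 1.70 (SD, n = 3). The member lay in nAChRalpha6, a nicotinic acetylcholine receptor gene (2L, 9828843 to 9829252), with a signal of 122 and 30.6, 51.3 and 30.3 in replicates 1, 2 and 3. It was a top peak of all 3 replicates. The related genes nAChRalpha4 and nAChRalpha1 held none in 50.9 and 37.8 kb, and the potassium channel gene slo none in 30.4 kb. Genes in no list were hosts in 172 of 1119 cases (15.4%), with 20.4 members per Mb and replicates at 14.9% ± 0.996.

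**Figure D5:**
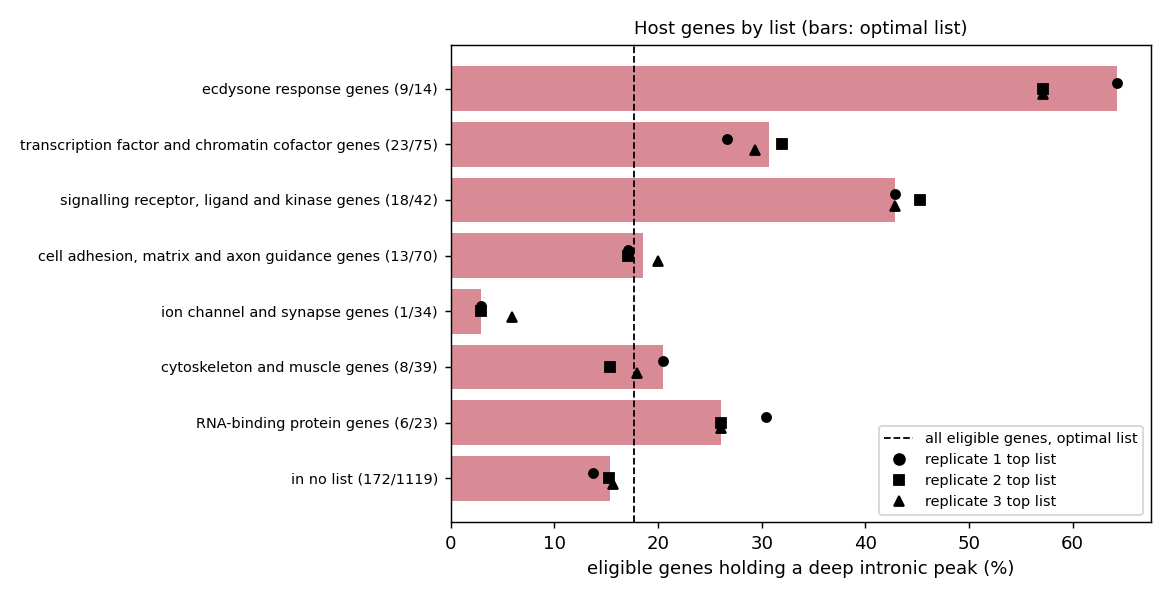
Share of eligible protein-coding genes (%) that hold a deep intronic peak in each gene list, in the optimal list (bars) and in the top lists of replicates 1, 2 and 3 (circle, square, triangle), with the dashed line at 17.7% for all eligible genes. Ecdysone response genes reach 64.3% and ion channel and synapse genes 2.94%.

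Gene length differed between the lists, so the shares were also taken in 2 length classes. Among genes with over 10 kb of eligible sequence, 8 of 11 ecdysone genes (72.7%), 14 of 22 signalling genes (63.6%), 15 of 37 transcription factor and cofactor genes (40.5%), 12 of 52 adhesion genes (23.1%) and 1 of 18 ion channel genes (5.56%) were hosts, against 32.1% of all 549 such genes. Cytoskeleton genes of that length were hosts in 6 of 10 cases and RNA-binding genes in 6 of 15. Among genes with up to 10 kb, the hosts were 1 of 3 ecdysone genes, 4 of 20 signalling genes, 8 of 38 transcription factor and cofactor genes, 2 of 29 cytoskeleton genes, 1 of 18 adhesion genes, 0 of 8 RNA-binding genes and 0 of 16 ion channel genes, against 8.54% of all 867. Among the longer genes, the ecdysone, signalling, transcription factor, cytoskeleton and RNA-binding lists thus stood above all genes. The adhesion and ion channel lists stood below. The ecdysone, cytoskeleton and RNA-binding counts there rest on few genes. In the shorter class the signalling and transcription factor lists stood above all genes. Each other list held 0 to 2 hosts there, too few to place above or below. These differences were not tested.

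Hosts more often had a peak at a start site as well. A summit of the optimal list was no more than 500 bp from one in 80 of the 250 hosts (32.0%) and in 189 of the 1166 other eligible genes (16.2%), read against 19.0% of all 1416. Hosts had a median of 2 annotated start sites and the others of 1. Among genes with 1 start site the shares were 20.9% of hosts and 9.84% of the others. With 2 or 3 they were 33.3% and 19.1%, and with 4 or more 63.9% and 43.0%. Hosts stood higher at each number of start sites. These genes also differ in length, and the part of length was not tested. Some hosts with strong or many members, among them dpp, gpp, Fas3, Snoo and tara, had no such promoter peak.

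Genes with more eligible sequence held a member more often, except above 100 kb. Of 88 genes with over 50 kb of eligible sequence, 37 held a member (42.0%), against 35.5% of genes with 20 to 50 kb, 24.9% with 10 to 20 kb and 1.18% with up to 2 kb. Of 23 with over 100 kb, 5 held one. The longest without a member were Myo81F, with 1905 kb, Pzl, with 690 kb, and lovit, with 417 kb. CG17684 and DIP-lambda followed, with 378 and 372 kb. Density was 12.6 members per Mb in genes with over 50 kb, against 27.4 in those with 20 to 50 kb and 31.4 in those with 10 to 20 kb.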

How the data were processed

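Peak lists from ChIP-seq of CG8319-GFP prepupae were analysed in dm6 coordinates, counted from 1. Each replicate list was called from that replicate and a control, the pooled list from the 3 together, and the optimal list by the irreproducible discovery rate (IDR), per the deposited text notes. Not given in the sources used here are aligner, caller and IDR threshold. Here the signal of a peak is the value deposited by the authors and was used only within a list; depth is unknown. The dm3 lists were not used.

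Summits were placed on the Ensembl BDGP6 annotation (release 115) without transposable elements, and sequence came from the RefSeq genome in dm6 coordinates. A member's replicate signal is that of the strongest overlapping replicate peak (1 bp or more). Members were compared with 3 classes of autosomal peaks (intronic within 5000 bp of a start site, intergenic over 5000 bp, all others) by exact sign-flip permutation over 3 replicates, with Benjamini-Hochberg adjustment over the 3 classes. Named genes are the hosts of the 20 strongest members found in all 3 top lists, the 3 weakest, hosts of 4 or more, up to 4 per gene list, and 3 on each side of the limit; others, such as hosts and long genes without a member, were chosen after their values were seen. The members and lists were chosen with earlier results of these data known. Replicates may share parents or preparation, so p-values measure the spread between these samples. Placement, word search and adjustment were tested on simulated data. Python 3.11.15, pandas 2.3.3, numpy 2.4.6 and matplotlib 3.10.9 were used.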

Additional observations from a re-analysis of the deposited data

How the results depend on the processing

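The number of members was 884 with a limit of 2000 bp from a start site, 233 with 10000 bp and 197 among the optimal peaks with signal above the list's median, and the host genes were 414, 120 and 142. The difference in share found in a replicate's top list reversed against intergenic peaks with the 10000 bp limit (0.392), and ranged from -1.95 to 3.02 when each replicate was left out. Among those above the median it reversed against near intronic peaks (0.290) and other autosomal peaks (0.308), by less than the spread. The percentile difference from intergenic peaks reversed with the 10000 bp limit (-5.52), above the median (-2.47) and with protein-coding genes only (-0.0151). The difference in A or T rise from intergenic peaks reversed above the median (0.0843). The summit gain of TTAAAA was 31.7 points with windows of about double the width, against 23.7. Within 20000 bp of a start site, chosen after seeing the data, the first intron excess was 18.5 points against 25.2, and the density 29.3 members per Mb against 21.8. The cause was not tested, except that fewer or more peaks follow from the limits themselves. The other 69 alternatives kept direction but not always size: differences from near intronic or other autosomal peaks that moved by over 1.5 times are given beside the main values, and the small differences from intergenic peaks moved by as much in several. Each class comparison was taken within replicates, so it is already paired by replicate, and no other paired analysis was possible because there is 1 group. With 3 replicates no exact p can fall below 0.25, and with unknown depth the absence of a member from a long intron cannot be told from too few reads.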
